A study of Caenorhabditis elegans with 2 samples.

Results

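The genes described here carry the symbols given to proteins of the large subunit of the cytosolic ribosome in Caenorhabditis elegans. The measurement was where a tagged protein, T26A8.4, bound near their starts. The members were the protein-coding genes of the Ensembl WBcel235 annotation whose symbol begins with rpl- or rla-, which gave 50 of 19973 protein-coding genes. The choice used symbols alone and no measured value, so it does not show that each product is part of the finished subunit. T26A8.4 is annotated by RefSeq as a protein with a C3H1-type domain, a kind of zinc finger.

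Chromatin immunoprecipitation sequencing (ChIP-seq) recovers the DNA that a protein touches, and a peak marks a stretch where that DNA piled up, with a summit at its highest point. The worms were whole L4 larvae, 48 hours old, of strain OP692, grown from embryos released by bleaching and held as starved L1 larvae. Every animal carried the transgene insertion wgIs692, in which T26A8.4 is fused to TY1, EGFP and 3xFLAG tags beside a working unc-119 copy, in the unc-119 (tm4063) mutant background. The fusion was precipitated with an antibody against GFP after sonication. The series has 1 group of 2 biological replicates and no contrast between conditions, so no test was run and each count is set beside the same count over all protein-coding genes. The strain is 1 transgenic line, the promoter that drives the fusion is not named in the labels, and no control precipitation was analysed here. In whole animals, weak binding in many cells and strong binding in few cells cannot be told apart.

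The large ribosomal subunit joins amino acids into protein and threads the new chain out through a tunnel. Its proteins are made in near-equal amounts from genes scattered over the genome, and a growing larva transcribes these genes heavily. In worms many annotated gene starts are trans-splice sites, where a short leader is joined to the transcript, so transcription can begin upstream of the annotated start. Roles given below are those known from ribosomes of yeast and mammals.

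A gene was called bound when a peak summit of the set that combines both replicates lay in its promoter window, which covers the 1000 bp before and the 200 bp after the annotated start. The 6 strongest summits of the large-subunit genes are shown as the RefSeq WBcel235 sequence of the summit base and 100 bases to each side, because these genes stood apart from the rest in signal. Each is written 5′ to 3′ on the strand of the gene, and capitals mark 5 words of 8 letters that were picked from the member windows of these data, described further down. The sequences follow.
rpl-3 (chrIII:3867462-3867662, plus strand): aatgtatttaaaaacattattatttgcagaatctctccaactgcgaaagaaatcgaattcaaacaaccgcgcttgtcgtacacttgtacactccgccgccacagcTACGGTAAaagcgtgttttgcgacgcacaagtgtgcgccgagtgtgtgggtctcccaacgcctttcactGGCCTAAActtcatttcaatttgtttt
rpl-20 (chrIV:4749968-4750168, minus strand): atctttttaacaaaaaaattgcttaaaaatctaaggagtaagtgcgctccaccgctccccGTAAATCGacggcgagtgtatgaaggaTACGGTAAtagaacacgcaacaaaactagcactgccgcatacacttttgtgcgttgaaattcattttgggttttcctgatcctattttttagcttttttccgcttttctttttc
rpl-35 (chrIII:7854581-7854781, plus strand): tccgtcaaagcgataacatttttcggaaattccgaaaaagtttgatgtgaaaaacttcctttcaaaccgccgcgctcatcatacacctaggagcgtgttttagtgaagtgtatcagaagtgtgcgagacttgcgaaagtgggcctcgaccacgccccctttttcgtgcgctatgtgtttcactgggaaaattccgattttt
rpl-15 (chrIV:654828-655028, minus strand): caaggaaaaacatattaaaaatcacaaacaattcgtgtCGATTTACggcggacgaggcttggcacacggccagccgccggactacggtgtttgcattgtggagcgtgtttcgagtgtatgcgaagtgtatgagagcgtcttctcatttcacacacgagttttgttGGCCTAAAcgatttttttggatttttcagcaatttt
rpl-7A (chrIV:4390561-4390761, minus strand): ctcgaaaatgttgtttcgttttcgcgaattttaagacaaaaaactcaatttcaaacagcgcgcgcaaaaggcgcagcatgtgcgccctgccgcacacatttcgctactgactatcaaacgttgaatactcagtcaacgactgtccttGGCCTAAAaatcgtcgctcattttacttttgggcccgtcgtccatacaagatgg
rpl-12 (chrIV:13240589-13240789, minus strand): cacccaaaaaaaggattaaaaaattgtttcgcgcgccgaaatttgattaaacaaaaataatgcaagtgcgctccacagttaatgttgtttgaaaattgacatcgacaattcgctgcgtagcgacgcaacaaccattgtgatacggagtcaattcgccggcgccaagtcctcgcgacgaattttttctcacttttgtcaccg

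In most of these windows the central part was richer in G and C than the borders, as the letters show. At rpl-12 a stretch rich in G and C lay off the centre, and the rpl-7A window had one near its end. Of these 6 windows, those of rpl-35 and rpl-12 held none of the 5 words. A second set shows 4 weaker members that shared a longer stretch, in which the word ACGAGTGT is followed by any letter and then ACCGTA. They are printed because the same stretch recurred near the summit of each.
rpl-11.2 (chrX:2242888-2243088, minus strand): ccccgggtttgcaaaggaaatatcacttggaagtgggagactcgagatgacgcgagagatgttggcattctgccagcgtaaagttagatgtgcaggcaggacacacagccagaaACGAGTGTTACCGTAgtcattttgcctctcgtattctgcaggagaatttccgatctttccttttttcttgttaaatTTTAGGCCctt
rpl-29 (chrIV:13881865-13882065, plus strand): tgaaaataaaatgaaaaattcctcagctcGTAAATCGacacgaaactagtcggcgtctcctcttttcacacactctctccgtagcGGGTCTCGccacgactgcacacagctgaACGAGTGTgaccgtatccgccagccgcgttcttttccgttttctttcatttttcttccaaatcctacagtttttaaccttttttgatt
rpl-6 (chrIII:7207978-7208178, plus strand): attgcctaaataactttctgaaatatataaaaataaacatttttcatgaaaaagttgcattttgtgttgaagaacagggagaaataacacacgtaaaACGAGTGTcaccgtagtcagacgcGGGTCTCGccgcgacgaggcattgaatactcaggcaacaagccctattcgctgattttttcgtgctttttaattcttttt
rpl-21 (chrIII:8130491-8130691, minus strand): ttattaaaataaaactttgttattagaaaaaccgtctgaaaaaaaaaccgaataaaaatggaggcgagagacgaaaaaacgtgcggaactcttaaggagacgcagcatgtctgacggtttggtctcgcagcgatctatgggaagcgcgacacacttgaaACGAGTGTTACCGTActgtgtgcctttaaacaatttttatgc

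The summit of T26A8.4 lay upstream of most large-subunit genes. Of the 50 genes, 28 (56%) had a summit of the combined set in their window, against 7.06% of all protein-coding genes. The strongest summit of each of the 28 ranged from a peak signal of 64.0 at rpl-30 to 1884 at rpl-3, with a median of 175. Peak signal is the authors' score, the sources do not state its scale, and it was ranked only within a list. The median member summit stood at percentile 72.6 of the 2993 summits of the combined set. Taking the strongest summit per gene in the same way, the 1382 other bound genes had a median signal of 145, at percentile 62.8. Over single summits, the median was 133 for the 1192 other summits in promoter windows and 123 for the whole set.

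**Figure D1:**
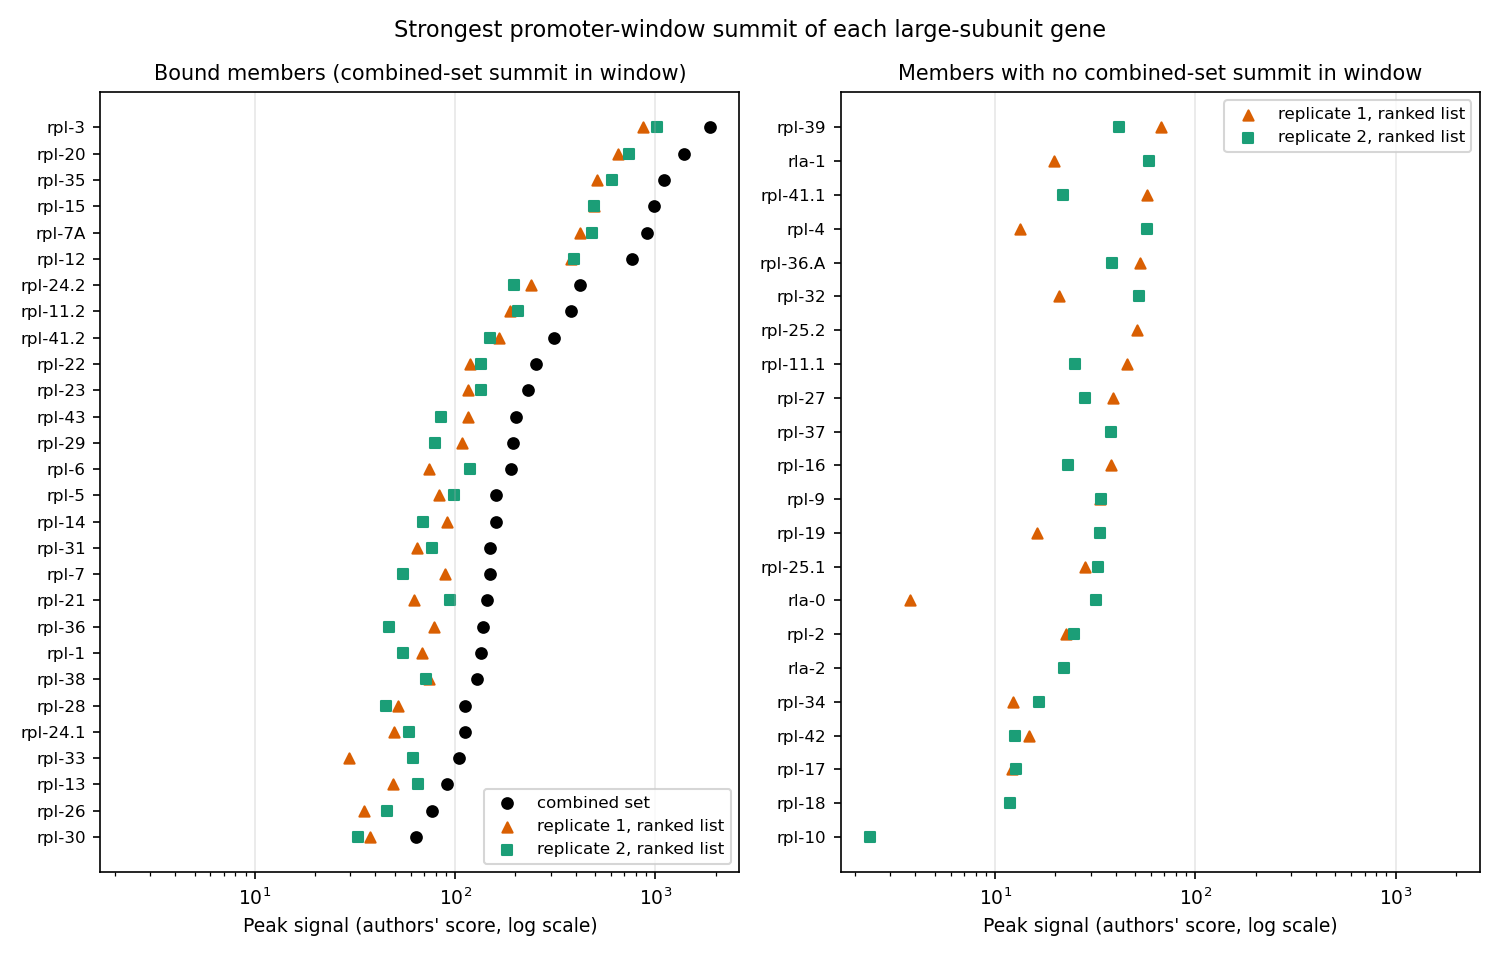
Peak signal (the authors' score, log scale) of the strongest promoter-window summit of each large-subunit gene, with 1 row per gene, black circles for the combined set, orange triangles for replicate 1 and green squares for replicate 2 from the ranked lists. The left panel has the 28 bound genes, where 6 genes from rpl-3 to rpl-12 lie above 700 and rpl-24.2 follows at 420, and the right panel has the 22 genes with no combined-set summit in the window.

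Both replicates showed the binding on their own, with fewer genes past the threshold in each. Replicate 1's own thresholded set had a summit at 19 of the 50 genes (4.84% of all protein-coding genes), and replicate 2's own set at 23 (5.50%). A summit in both sets was found at 17 members, or 34%, against 3.79% of all protein-coding genes. A more conservative set of both replicates gave 27 members (6.63% of all protein-coding genes), of which 25 were among the 28. It lacked rpl-26, rpl-30 and rpl-33, and it held rpl-36.A and rpl-39, which had no summit in the combined set. The ranked lists, which also keep weak regions, had a summit at 46 members in replicate 1 (48.4% of all protein-coding genes) and at 49 in replicate 2 (45.3%).

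The order of the members was much alike in the replicates. Over the 45 members with a summit in both ranked lists, the Spearman correlation of their peak signals was 0.84, and over the 28 bound members it was 0.88. This describes genes measured in the same 2 libraries, and genes are not replicates. The summit positions of the replicates at the bound members differed by a median of 12.5 bp and by at most 20 bp at 22 of 28 genes. The largest gap, 197 bp, was at rpl-30, the member with the lowest combined signal. A replicate's value for a gene is that of its own strongest summit in the window, and among the bound members those of the replicates lay over 100 bp apart at rpl-1, rpl-13 and rpl-30. There, and at unbound members such as rpl-11.1 and rpl-41.1, the values of the replicates belong to different summits.

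The strongest peak of the whole combined set lay at rpl-3, whose protein reaches from the surface of the subunit to the centre where peptide bonds form. Its signal was 869 in replicate 1 and 1021 in replicate 2, and its summit lay 292 bp upstream of the start. The rpl-20 summit (signal 1387, rank 6) lay at −290 bp, with 652 in replicate 1 and 743 in replicate 2. It stood between rpl-20 and the divergent gene Y17G9B.5, whose start was nearer, at 172 bp. The protein of rpl-35 sits beside the exit of the peptide tunnel. Its summit (1100, rank 17) was at −453 bp and had signals of 511 in replicate 1 and 610 in replicate 2.

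A further 3 members completed the group above a signal of 700. The summit of rpl-15, which encodes a protein buried in the ribosomal RNA, had a signal of 985 (rank 29), with 491 in replicate 1 and 492 in replicate 2, at −352 bp. That of rpl-7A, a member of the L7Ae family of RNA-binding proteins, had 908 (rank 34), with 421 in replicate 1 and 481 in replicate 2, at −71 bp. The protein of rpl-12 forms the base of the stalk that receives translation factors. Its summit had 766 (rank 48), with 378 in replicate 1 and 393 in replicate 2, and lay at −38 bp, the nearest to a start among the members. These 6 genes were within the 50 strongest summits of the set, and no other member was within the 100 strongest. Among the 1382 other bound genes, 31 had a summit within the 50 strongest. Some of these were counted for the same summits. Those of rpl-20, rpl-15, rpl-7A and rpl-12 also lay in the windows of Y17G9B.5, K11H12.8, set-21 and lin-54, in that order.

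The next members lay below a gap in signal. At rpl-24.2 the signal was 420, with 239 in replicate 1 and 197 in replicate 2, and its summit at −168 bp fell in an intron of C03D6.1. At rpl-11.2 it was 378, with 188 in replicate 1 and 205 in replicate 2. At rpl-41.2, which encodes a very short basic peptide, it was 310, with 165 in replicate 1 and 150 in replicate 2. At these 3 genes the own thresholded sets of both replicates held the summit.

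Between 200 and 300 in signal lay rpl-22, rpl-23 and rpl-43. The summit of rpl-22 had 253 in the combined set, 119 in replicate 1 and 135 in replicate 2, and it also lay 204 bp upstream of the divergent ify-1. That of rpl-23, whose protein faces the small subunit and binds the assembly factor eIF6, had 232, with 116 in replicate 1 and 135 in replicate 2. That of rpl-43 had 202, with 116 in replicate 1 and 85.2 in replicate 2. It lay at −754 bp from the start of rpl-43 and 167 bp from that of the divergent Y48B6A.1, so it can be read with either gene. The remaining 16 bound members had signals from 64.0 to 195. At rpl-29 the signal was 195, with 108 in replicate 1 and 79.3 in replicate 2. At rpl-6 it was 191, with 74.0 in replicate 1 and 119 in replicate 2. The replicates thus ordered rpl-29 and rpl-6 differently. At rpl-14 it was 160, with 91.4 in replicate 1 and 68.7 in replicate 2.

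Bound and unbound members were found side by side in most role groups. Of the 4 genes for the stalk and its base, rpl-12 was bound and rla-0, rla-1 and rla-2, which encode the stalk proteins themselves, were not. Replicate 2 alone had a thresholded summit at rla-1 (58.9), at +57 bp, while replicate 1 listed 19.8 in its ranked list. Of the 3 genes for the proteins that carry 5S ribosomal RNA, rpl-5 (160) and rpl-11.2 (378) were bound and rpl-11.1 was not. The signals of rpl-5 were 83.4 in replicate 1 and 98.2 in replicate 2. Of the 3 genes for proteins of the catalytic core and of late assembly, rpl-3 was bound, and rpl-2 and rpl-10 were not. The ranked signals of rpl-2 were 22.5 in replicate 1 and 24.7 in replicate 2.

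The protein of rpl-1 forms the mobile L1 stalk on the side where spent transfer RNA leaves. Its strongest combined summit had a signal of 135 at −252 bp. The strongest summit of replicate 1, which passed that replicate's threshold, had 68.5 at −248 bp. The strongest of replicate 2 was another one, with 55.2 at −430 bp, and it passed no threshold. Of the 9 genes for proteins that line the peptide tunnel or surround its exit, rpl-35 (1100), rpl-31 (150) and rpl-26 (77.0) were bound. The others in that group were rpl-4, rpl-17, rpl-19, rpl-25.1, rpl-25.2 and rpl-39. The remaining 30 genes, which were those placed in no other group, had 20 bound members. These groups hold few genes, and their shares are given as counts only.

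The threshold divided some members between replicates. Besides rpl-1, rpl-36 passed in replicate 1 alone, with signals of 78.5 in replicate 1 and 46.5 in replicate 2. In replicate 2 alone a summit passed at rpl-13, rpl-21, rpl-24.1, rpl-33, rpl-38 and rla-1. At rpl-33 the signals were 29.4 in replicate 1 and 61.3 in replicate 2. At rpl-38 the ranked list of replicate 1 held a summit with 74.1, and replicate 2 had 71.7, so a missing call does not show a missing signal. The integer score given there by the authors was 431 in replicate 1 and 1000 in replicate 2. At rpl-13 they were 48.8 in replicate 1, at −136 bp, and 65.2 in replicate 2, at −252 bp. At rpl-21 they were 62.5 in replicate 1 and 94.4 in replicate 2, and at rpl-24.1 they were 49.6 in replicate 1 and 58.8 in replicate 2. A further 4 bound members, rpl-7, rpl-26, rpl-28 and rpl-30, passed in neither replicate's own set. At rpl-7 the ranked signals were 89.0 in replicate 1 and 54.7 in replicate 2, and at rpl-28 they were 51.8 in replicate 1 and 45.1 in replicate 2. At rpl-26, whose protein lies near the tunnel exit, they were 35.1 in replicate 1 and 45.5 in replicate 2. At rpl-30 they were 37.8 in replicate 1, at −784 bp, and 32.7 in replicate 2, at −981 bp, and the combined summit, at −781 bp, lay inside pab-1.

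The 22 members without a combined-set summit were rla-0, rla-1, rla-2, rpl-2, rpl-4, rpl-9, rpl-10, rpl-11.1, rpl-16, rpl-17, rpl-18, rpl-19, rpl-25.1, rpl-25.2, rpl-27, rpl-32, rpl-34, rpl-36.A, rpl-37, rpl-39, rpl-41.1 and rpl-42. Most of them still had a weak summit in the window, 18 in the ranked list of replicate 1 and 21 in that of replicate 2. Their median ranked signals were 25.4 in replicate 1 and 28.3 in replicate 2, against 21.2 in replicate 1 and 20.7 in replicate 2 for other unbound genes with a summit in the same lists. The highest were 67.5 in replicate 1 at rpl-39 and 58.9 in replicate 2 at rla-1. The lowest were 3.76 in replicate 1 at rla-0, which had 31.9 in replicate 2, and 2.36 in replicate 2 at rpl-10, which had no summit in the ranked list of replicate 1. At rpl-4 the values were 13.3 in replicate 1 and 57.2 in replicate 2. At rpl-9 they were 33.3 in replicate 1 and 33.7 in replicate 2. Whether signals of the 2 lists share a scale is not known.

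In 2 of 4 paralog pairs, 1 gene was bound and the other was not. The genes rpl-11.1 and rpl-11.2 encode proteins of 196 residues each that are 91.3% identical, and rpl-11.2 on X was bound while rpl-11.1 on V was not. The ranked signals of rpl-11.1 were 45.8 in replicate 1 and 25.04 in replicate 2. The genes rpl-41.1 and rpl-41.2 encode the same 22 residues from starts 1102 bp apart on the same strand. The upstream one, rpl-41.1, had no combined-set summit, with ranked signals of 57.3 in replicate 1 and 21.7 in replicate 2, while the summit of rpl-41.2 lay between them at −254 bp from its own start. The proteins of rpl-25.1 and rpl-25.2 are 70.1% identical and neither gene was bound. The genes rpl-24.1 (112) and rpl-24.2 (420) were both bound, and their proteins are 25.4% identical.

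The summits lay in a narrow belt upstream of the starts. Taking the summit nearest to each start, the 28 bound members had a median offset of −295 bp, with quartiles at −369 bp and −256 bp, where negative values are upstream. In the 1382 other bound genes the median was −237 bp, with quartiles at −475 bp and −100 bp. Between 500 and 200 bp upstream lay 23 of 28 members (82.1%), against 33.6% of the other bound genes. Outside that belt were rpl-12 and rpl-7A, whose summits were close to the start, rpl-24.2 just inside 200 bp, and rpl-43 and rpl-30 farther than 700 bp. No member summit lay downstream of its start.

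**Figure D2:**
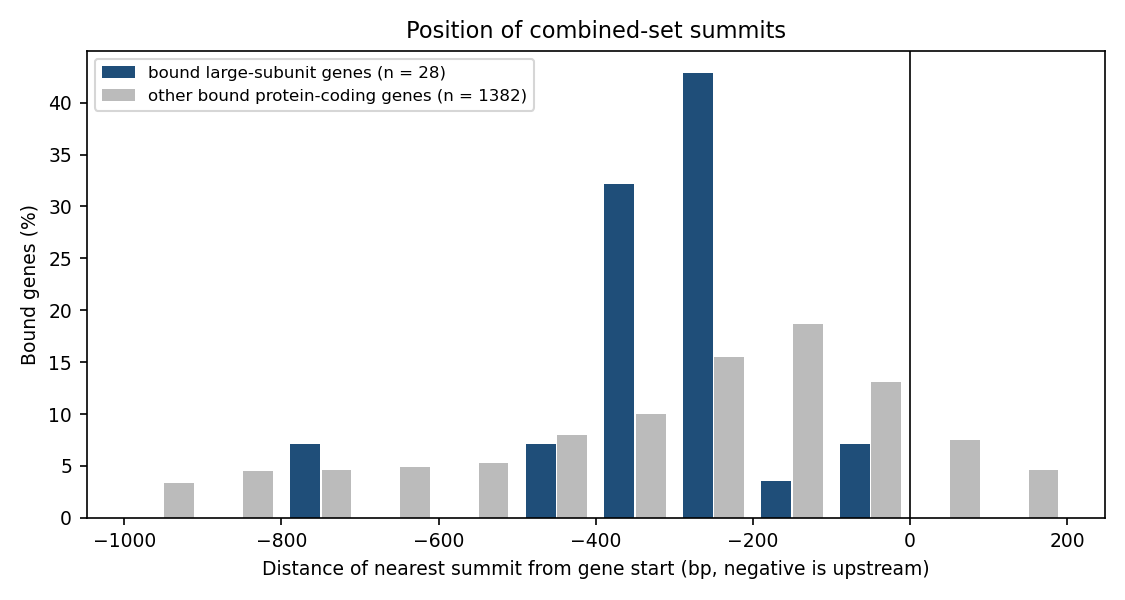
Share of bound genes (%) by the distance of the nearest combined-set summit from the annotated gene start, in bins of 100 bp, with blue bars for the 28 bound large-subunit genes and grey bars for the 1382 other bound protein-coding genes. The blue bars gather between −400 and −200 bp, which hold 21 of the 28 genes, while the grey bars are highest between −200 and −100 bp.

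The position of the unbound members was read from the ranked lists. Their strongest ranked summit lay 500 to 200 bp upstream in 10 of 18 genes (55.6%) in replicate 1 and in 9 of 21 (42.9%) in replicate 2. Among other unbound genes with a ranked summit these shares were 24.3% in replicate 1 and 24.17% in replicate 2. The differences between these shares were not tested.

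Most member summits, 23 of 28, lay between annotated genes. The summits of rpl-24.2 and rpl-30 were in introns of C03D6.1 and pab-1, and those of rpl-5, rpl-7 and rpl-24.1 were in exons of genes annotated as noncoding RNA. No member summit lay within 200 bp of an annotated tRNA, snoRNA or snRNA gene. Of the 28 summits, 18 also lay in the window of another protein-coding gene, and 10 lay nearer to another gene's start than to the member's. These 10 were the summits of rpl-20, rpl-21, rpl-22, rpl-26, rpl-28, rpl-30, rpl-31, rpl-33, rpl-36 and rpl-43. The same counts of places and neighbours were not made for the other promoter summits, so they describe the members only. The gene sharing the summit was itself a ribosomal protein gene at rpl-36 (rps-14, at −263 bp) and rpl-24.1 (rps-10, at −332 bp), and a mitochondrial one at rpl-28 (mrpl-49, at −184 bp). Counted only for the nearest start, 18 members (36%) were bound, against 5.49% of all protein-coding genes.

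The upstream neighbour of each gene was also compared, a grouping made after the values were seen. Members had a median of 596 bp to the next protein-coding gene upstream, against 1160 bp for other protein-coding genes. In 4 members, rla-1, rpl-16, rpl-25.1 and rpl-27, that gene was on the same strand and ended within 150 bp, and none of the 4 was bound. Of 1591 other genes with such a neighbour, 6.73% were bound. Members with a same-strand neighbour farther away were bound in 10 of 14 cases, against 5.10% of such other genes. Members with a divergent neighbour were bound in 18 of 32 cases, against 8.86% of such other genes.

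Small nucleolar RNAs (snoRNAs), which guide changes to ribosomal RNA, are often encoded in introns of ribosomal protein genes. An annotated snoRNA on the same strand lay inside 8 members, of which 6 were bound, namely rpl-6, rpl-7, rpl-7A, rpl-15, rpl-24.1 and rpl-26, while rpl-2 and rpl-4 were not. Of the 42 members without one, 22 were bound. Among other protein-coding genes, 33 of 151 snoRNA hosts (21.9%) were bound, and 6.82% of the genes without a snoRNA were.

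Genes for other parts of the ribosome were read for comparison, from lists chosen with earlier results of these data known. Of the 32 small-subunit genes (rps- and ubl-1), 20 (62.5%) were bound, with a median offset of −280 bp and 75% of them in the belt from 500 to 200 bp upstream. Their strongest summit was at rps-1 (766). The gene ubq-2, which encodes a large-subunit protein fused to ubiquitin and falls outside the symbol rule, was bound with a signal of 192 at −488 bp. Of the 41 genes of the large mitochondrial subunit (mrpl-), 10 (24.4%) were bound, with a median offset of −149 bp and 1 of the 10 in that belt. Of 29 matched genes for ribosome assembly and ribosomal RNA synthesis, 6 (20.7%) were bound, with a median offset of −141 bp. The cytosolic lists thus had larger shares and a farther position than the mitochondrial and assembly lists, and these differences were not tested.

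**Figure D3:**
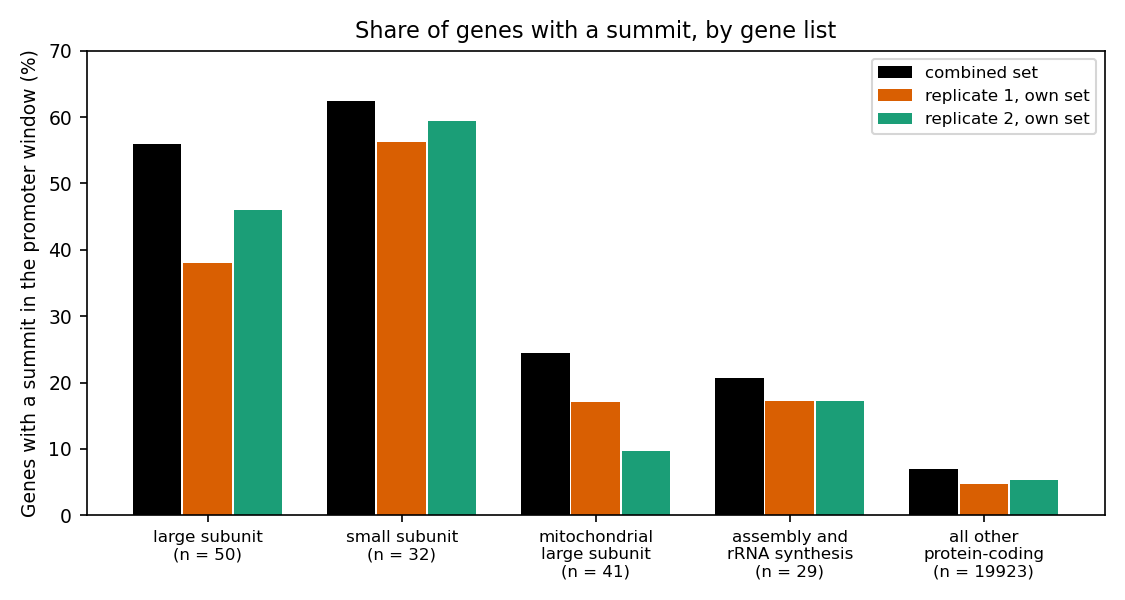
Share of genes (%) with a summit in the promoter window for 5 gene lists, with black bars for the combined set, orange bars for replicate 1's own thresholded set and green bars for replicate 2's. Large-subunit genes reach 56% in the combined set, 38% in replicate 1 and 46% in replicate 2, and all other protein-coding genes reach 6.94% in the combined set.

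The DNA under the member summits had a narrow centre rich in G and C. Within 50 bp to each side of the summit the GC content was 50.4% ± 6.35 (SD, n = 28), against 46.7% ± 8.87 at the 1192 other promoter summits. Within 150 bp to each side the order was the other way, with 37.0% ± 4.59 at the members and 41.05% ± 7.13 at the other summits. Within 100 bp to each side the means were 41.9% ± 4.99 at the members and 43.4% ± 7.53 at the others, so the direction depends on the window. Windows 500 to 700 bp to both sides averaged 40.4% around the members and 37.4% around the others. In bins of 20 bp along the plus strand of the chromosome, whatever the strand of the gene, GC reached 53.6% just before the member summits. It fell to 26.4% about 150 bp before the summits and to 22.9% about 130 bp after them on that strand.

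**Figure D4:**
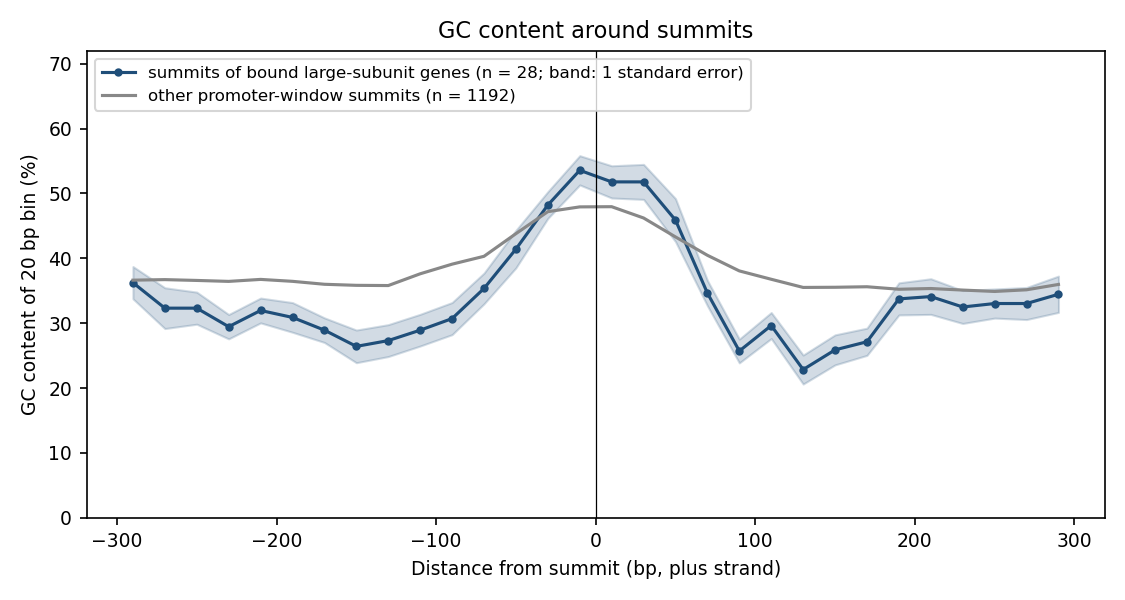
Mean GC content (%) of 20 bp bins by distance from the summit on the plus strand, with blue points for the 28 member summits (band, 1 standard error over summits) and a grey line for the 1192 other promoter-window summits. The blue curve exceeds the grey one from about −30 to 50 bp, where it reaches 53.6%, and lies below it farther out, where it falls to 22.9%.

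Known sequence elements were each present in 5 or fewer of the 28 member windows, each 100 bp to both sides of the summit. All words were searched on both strands. The GAGA repeat GAGAGAGA was in 0 of 28 windows, against 6.80% of the other promoter-window summits. The word CTGCGTCT was in 2 windows, against 11.16%, and CCAAT in 5, against 29.6%. The E box CACGTG was in 1 window (6.54% of the others), TATAAA in 2 (13.1%), GGGCGG in 2 (11.0%), TTTTTTTT in 3 (12.7%), TTCCGG in 0 (5.37%) and TGACGTCA in 0 (1.51%). In the member windows, sites of these words overlapped with no site of another word searched. A count of 0 here means that these letters were not in these windows.

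Other words recurred in the member windows. Ranked by the number of windows alone, the first was AAAAAATT, in 12 of 28 windows (9.06% of the others), followed by other words rich in A, in 9 windows each. Ranked by the difference in share from the other promoter summits, with at least 3 letters being G or C and no run of 5 letters in common, the first 5 were taken. Since they were picked for this difference, it is a description. Word 1, GGCCTAAA, was in 9 windows (32.1%), against 1.01% of the others. Word 2, ACGAGTGT, was in 7 (25%), against 0.923%, and word 3, GGGTCTCG, in 8 (28.6%), against 4.53%. Word 4, GTAAATCG, was in 7 (25%), against 2.01%, and word 5, TACGGTAA, in 6 (21.4%), against 1.17%. At least 1 of the 5 was in 22 of 28 member windows (78.6%) and in 8.05% of the others. The 6 members with none were rpl-5, rpl-12, rpl-24.2, rpl-30, rpl-33 and rpl-35.

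Within 100 bp of the summits, some of the words lay mostly on 1 side. The words were picked from these windows, so a place within 100 bp was fixed by the pick. Word 4 lay on the far side from the gene in 7 of 7 sites, at a median of −59.5 bp from the summit. Word 1 lay on the side of the gene in 9 of 10 sites, at a median of 67 bp. Words 2, 3 and 5 lay nearer the summit, at medians of 17.5, 10.5 and 29 bp. On the side of the gene lay 7 of 7 sites of word 2, 5 of 8 of word 3 and 5 of 6 of word 5. In the promoter windows of all members, the word as spelled here was on the strand of the gene in 13 of 19 sites for word 1, 8 of 9 for word 2, 13 of 17 for word 3, 7 of 13 for word 4 and 3 of 8 for word 5. Within 100 bp of the summit, the strongest bound member, rpl-3, held words 5 and 1, and the weakest, rpl-30, held none. The words did not follow the signal throughout. Those windows held none at rpl-35 (1100) and rpl-12 (766), and words 1 and 3 at rpl-26 (77.0).

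**Figure D5:**
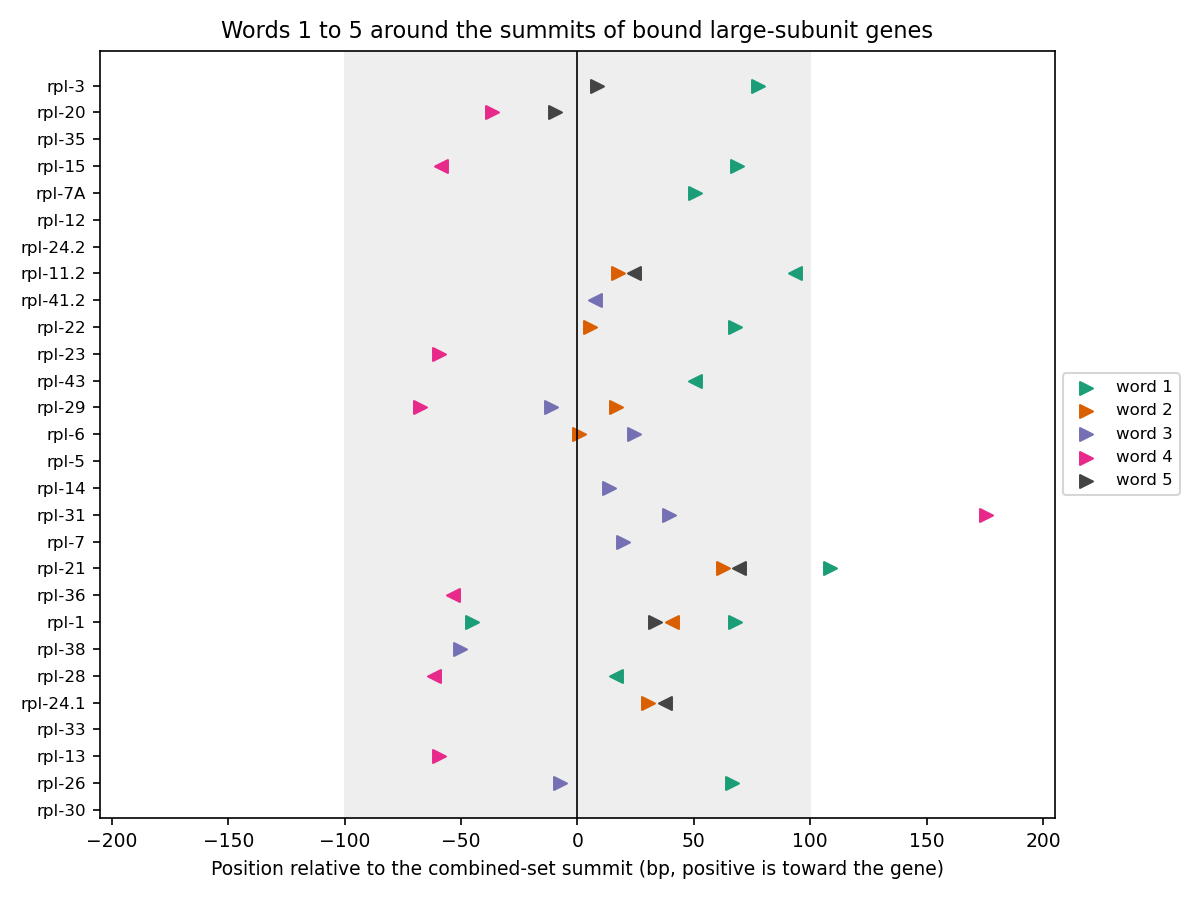
Positions (bp) of words 1 to 5 relative to the combined-set summit of each bound large-subunit gene, with 1 row per gene in order of signal, triangles pointing right for words on the strand of the gene and left for the other strand, and grey shading for the 100 bp to each side. Word 4 sits about 60 bp before the summit, word 1 about 67 bp after it on the side of the gene, and words 2, 3 and 5 near it.

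The same words were counted in stretches placed by the gene start alone. From 500 to just over 200 bp upstream of the start, at least 1 word was found in 29 of 50 members (58%), against 5.40% of other protein-coding genes, and at least 2 words in 14 members (28%), against 0.316%. The words were picked from the summit windows of the bound members, and 23 of those 28 summits lie in this stretch, so the count in bound members, 21 of 28, follows from the pick. Of the 22 unbound members, which gave no summit window to the pick, 8 (36.4%) held at least 1 word. The unbound members rpl-2, rpl-17 and rpl-34 held 3 words each. Of the 32 small-subunit genes, 18 held at least 1. This count is not wholly apart from the pick, because rps-10 and rps-14 share the summits of rpl-24.1 and rpl-36. The share of all protein-coding genes with each word in this stretch was 1.11% for word 1, 0.426% for word 2, 1.77% for word 3, 1.47% for word 4 and 1.20% for word 5. In an overlapping stretch, from 250 bp before to 50 bp after the start, word 1 was in 8 members (0.891% of all protein-coding genes), word 2 in 3 (0.496%), word 3 in 5 (1.40%), word 4 in 1 (1.22%) and word 5 in 3 (1.15%). For word 4, 1 of 50 members is near the share in all genes.

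In the 7 member windows with word 2, it was each time followed by any 1 letter and then ACCGTA, and these last 6 letters are shared with word 5 read on the other strand. In 4 of the 7 windows a site of word 5 followed directly and shared 1 letter with word 2. This longer pattern was noticed in these windows and then counted. It was in the summit windows of rpl-1, rpl-6, rpl-11.2, rpl-21, rpl-22, rpl-24.1 and rpl-29 and in 0.503% of the other promoter summit windows. In the same stretch placed by the gene start it was in 8 members, the eighth being rpl-34, and in 28 (0.140%) of all protein-coding genes. The whole genome held 30 copies, of which 8 lay in the promoter window of a member. That 7 of those 8 copies lay within 100 bp of a combined-set summit was fixed by the way the pattern was found. Of the other 22 copies, 6 lay within 100 bp of such a summit, while positions within 100 bp of a summit make up 0.600% of the genome. That share is not a like comparison, because most of the 22 lay in promoter windows, 5 of small-subunit genes and 14 of other genes. The share for promoter positions alone was not counted. At rpl-34 the nearest combined-set summit was over 50 kb away, and the ranked signals in its window were 12.3 in replicate 1 and 16.6 in replicate 2.

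Bound members lay on I, II, III, IV, V and X. The counts were 9 of 17 on I, 5 of 9 on II, 6 of 9 on III, 5 of 8 on IV, 2 of 5 on V and 1 of 2 on X. The 6 members with a signal above 700 were on III (rpl-3 and rpl-35) and IV (rpl-20, rpl-15, rpl-7A and rpl-12). The strongest summit of a member on I was that of rpl-24.2 and on II that of rpl-22. On V the strongest was that of rpl-38 (128). Among other protein-coding genes, the bound share ran from 4.49% on V to 10.6% on III.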

How the data were processed

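ChIP-seq peak lists of 2 biological replicates, 1 group, were used as deposited, on ce11, the same assembly as WBcel235. The authors deposited a thresholded and a ranked list per replicate and 2 thresholded lists for both, per the labels' file listings. Each peak has a peak signal, a score given by the authors, an integer score of at least 830 and at most 1000 in the combined set, and a −log10 q-value deposited by the authors, which was not used to filter. The scale of the signal is unknown, the peak caller and the aligner were not given in the sources used here, and the depth behind each peak is unknown. Whether thresholds or peak calling differed between lists was not tested.

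The summit was placed at the deposited start plus the deposited summit position. Genes came from Ensembl release 115 and bases from RefSeq WBcel235. Promoter windows ran from 1000 bp upstream to 200 bp downstream. Paralog proteins were translated from the annotated coding exons and aligned globally with BLOSUM62. A member's strongest summit gave its signal and sequence, and its nearest summit gave the offset. Motifs were searched on both strands of the 100 bp to each side of the summit. Peaks of the replicates were called overlapping at 50% of the shorter one. Members named with values were the 12 with the highest signal, every paralog pair and every member past the threshold in 1 replicate alone. Other genes named are neighbours that share a summit, members of a comparison list, or genes chosen after their values were seen. The members, lists and comparisons were chosen with earlier results of these data known. No test was run, because there is no contrast. The alternatives were other peak sets, each replicate alone, other windows, nearest gene only, any transcript start, 1 summit per interval and other overlap rules. The tools were Biopython 1.88, Matplotlib 3.10.9, SciPy 1.17.1, pandas 2.3.3, NumPy 2.4.6 and Python 3.11.15. The steps were tested on simulated data.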

Additional observations from a re-analysis of the deposited data

How the results depend on the processing

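In brackets is the share of all protein-coding genes under the same setting. The count of 28 bound members (7.06%) fell to 18 when each summit was counted only for the nearest start (5.49%). It fell to 17 when a summit was required in both replicates' own sets (3.79%). It was 19 in replicate 1 alone (4.84%) and 23 in replicate 2 alone (5.50%). Other settings also stayed within 1.5 times of 28. The narrower window gave 26 members (5.16%), the wider one 29 (9.61%), the conservative set 27 (6.63%) and the upper 50% of signals 22 (4.54%). The count was 28 both when each interval kept 1 summit (7.03%) and when any transcript start was allowed (7.73%). Leaving out the 4 members with a close same-strand neighbour could not change the count, because none of the 4 was bound. The cause of the moves in the count was not tested beyond the construction of each alternative.

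The median offset of −295 bp became −294 bp with the conservative set, −293 bp with the narrower window, −296 bp with the wider one, −285 bp with the nearest start only or without members whose summit is nearer another start, and −299 bp in each replicate alone. The median percentile of 72.6 became 74.7 with the conservative set, 62.8 among the 50% highest signals, 68.9 with the wider window, 80.7 with the nearest start only, and 76.0 to 77.3 in the replicates alone. The mean GC content of 41.9% in 100 bp to each side became 42.4% with the conservative set, 42.9% among the 50% highest signals, 43.7% with the nearest start only, 42.2% to 42.4% in the replicates alone, 50.4% in 50 bp to each side and 37.0% in 150 bp to each side. Peaks of 17 bound members overlapped a thresholded peak of both replicates, and 13 did when the overlap had to reach 50% of each. Of 28 word counts in the other summit windows, 19 stayed within 1.5 times, and 9 moved further, 6 of them in the narrower window.

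No control precipitation was analysed, read depth is not known, and 420 bp, a width shared by 15 of the 28 member peaks and 64.8% of all, limits what the peak edges show. A gene with no summit may still bind below the threshold.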

Other observations

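Of the 22 copies of ACGAGTGT, any letter and ACCGTA outside the large-subunit promoters, 5 lay in promoter windows of small-subunit genes, 14 in those of other genes and 3 in neither. A combined-set summit lay within 100 bp of 2 of the 5, of 4 of the 14 and of 0 of the 3. The copies with a summit were at rps-29 (signal 136), at rps-23 (315), and, among other genes, between npp-3 and top-2 (274), between ile-2 and trap-2 (282), at ndk-1 (442) and at eel-1 (698). These genes were chosen after their values were seen. A copy also lay 104 bp upstream of the annotated start of T26A8.4, the gene whose tagged form was precipitated. The nearest summit of the ranked lists was over 17 kb away in each replicate. These lists held 70405 summits in replicate 1 and 66732 in replicate 2. With lists this dense, so long a stretch without a summit does not show that the copy is unbound, and its cause was not tested. The labels place the tagged form of T26A8.4 in a transgene, and no more was tested there.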
